A study of Mus musculus with 13 samples.

Results

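Activin and TGF-beta signalling was followed in chemically induced skin tumours through 10 genes: the activin subunit genes Inhba and Inhbb, the activin inhibitor gene Fst, the ligand genes Tgfb1, Tgfb2 and Tgfb3, the receptor genes Tgfbr1, Tgfbr2 and Acvr2a, and the feedback inhibitor gene Smad7. Members were all probe sets that carry only one of these symbols in the platform annotation. They came to 15 of the 45141 probe sets on the array and cover 9 of the 10 genes. Expression of Inhbb was not analysed here. Probe sets of the same gene are numbered in the order of their identifiers, and 2 Acvr2a probe sets that also carry the symbol Orc4 were left out.

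The tumours were squamous cell carcinomas of mice labelled G9a WT (n = 6 arrays) or G9a cKO (n = 7 arrays), where cKO stands for conditional knockout of the histone methyltransferase G9a, encoded by Ehmt2. Mice of both genotypes received the carcinogen DMBA (0.25 mg/ml) and the tumour promoter TPA (0.02 mg/ml), in 200 µl acetone solutions on the shaved back, each week for 6 weeks from 8 weeks of age, and TPA was then continued 2 times a week for up to 20 weeks. Total RNA of bulk tumour samples was measured, so fewer cells of a type and less RNA per cell cannot be told apart. The labels name neither the promoter that drives the recombinase nor the cells that lose G9a, and leave unsaid whether the tumours are of separate mice. The p-values thus measure only the spread between these samples, which may be technical in part.

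Activins are dimers of inhibin beta subunits. They bind a type II receptor such as Acvr2a, which recruits a type I receptor that phosphorylates Smad2 and Smad3. TGF-beta uses the same Smads through Tgfbr2 and Tgfbr1, after its release from a latent complex, while follistatin, the product of Fst, binds and neutralises activin, and Smad7 blocks the receptors. In skin, activin A is known as a signal of wounds and of hyperproliferative epidermis, and TGF-beta as a restraint on keratinocyte growth.

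The labels were checked on Ehmt2. Its probe set 2 ranged from 8.03 to 8.61 (log2) in WT tumours and from 5.87 to 6.12 in cKO tumours, a difference of -2.33 (limma adjusted p = 1.3e-09), whereas probe set 1 differed by 0.13 (adjusted p = 0.163, and 0.0138 after quantile normalization). Where either lies relative to the deleted part is unstated in the sources used. Values are deposited RMA values on the log2 scale, with array medians of 5.09 to 5.14. Within each group, arrays that follow one another in the deposit mirrored each other around the group mean, with correlations of their deviations between -0.953 and -0.881 in 6 such pairs. Each difference was therefore fitted with limma without and with a term for these pairs. The words rose and fell are kept for genes with an adjusted p under 0.05 in each of the fits. Mirrored neighbours are not independent, yet the fit without the term counts them so, with 11 residual degrees of freedom against 6. Its p-values may thus be too small and its intervals too narrow. Intervals are from that fit unless the pair term is named. The 23 nonspecific control probe sets differed between the groups by -0.31 to 0.08, and the 18 hybridisation controls by 0.06 to 0.49; differences within these ranges are not set apart from those of controls. A level under 4.29 on every array of a group, where 4.29 is the 75th percentile of the nonspecific controls, is called not above background.

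Upstream sequence is shown for 3 members with probe sets lower in cKO tumours, the ligand gene with the largest difference and the receptor genes of TGF-beta, since they share that direction and differ in composition. Sequences are the 250 bases before the annotated start from RefSeq (GRCm38.p6), written from 5′ to 3′ along the gene, with matches to the motifs searched in capitals.
Inhba, chr13:16011601-16011850, plus strand: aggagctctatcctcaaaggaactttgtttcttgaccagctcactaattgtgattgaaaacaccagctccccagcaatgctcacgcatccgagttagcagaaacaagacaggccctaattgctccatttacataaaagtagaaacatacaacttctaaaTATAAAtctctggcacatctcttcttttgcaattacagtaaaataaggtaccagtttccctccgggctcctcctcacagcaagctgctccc
Tgfbr1, chr4:47352972-47353221, plus strand: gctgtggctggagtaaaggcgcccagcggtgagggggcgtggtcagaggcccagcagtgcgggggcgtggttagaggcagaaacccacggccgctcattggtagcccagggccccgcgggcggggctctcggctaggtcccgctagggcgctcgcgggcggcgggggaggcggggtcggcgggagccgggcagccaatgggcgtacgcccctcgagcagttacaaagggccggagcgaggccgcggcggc
Tgfbr2, chr9:116175364-116175613, minus strand: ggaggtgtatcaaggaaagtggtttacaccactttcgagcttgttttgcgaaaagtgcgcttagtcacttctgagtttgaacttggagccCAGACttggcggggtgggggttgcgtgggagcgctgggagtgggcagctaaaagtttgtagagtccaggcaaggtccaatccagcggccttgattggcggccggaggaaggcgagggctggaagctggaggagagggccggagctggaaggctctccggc
The motifs searched were the Smad box CAGAC, the AP-1 site TGANTCA and the TATA box TATAAA, on both strands. They are present in 42.2%, 6.75% and 12.4% of the 32851 windows of this length in the table. Matches are of letters alone, at any position, and whether any works as a site was not tested. The Inhba window held 1 match to the TATA box, no Smad box and no AP-1 site. That of Tgfbr2 held 1 Smad box, 160 bases before the start, and that of Tgfbr1 none of the motifs. Inhba had 3 CpG dinucleotides in this window and a GC content of 43.2%, against a median of 6 CpG and 52.4% GC over all windows. The window of Tgfbr2 had 12 CpG and that of Tgfbr1 29. A further annotated start of Tgfbr1 had 3 CpG and 1 Smad box. Of the other members found in the table, Acvr2a had 49 CpG, more than 99.9% of windows have, Tgfb1 and Inhbb 21 each and Tgfb2 8. The Acvr2a window held 1 Smad box, that of Tgfb2 held 2 and a TATA box, and those of Tgfb1 and Inhbb held none of the motifs. The windows shown were chosen in part because they differ in composition, so their spread in CpG is no result about lower members. Tgfbr2 passed as lower only without the pair term. Windows of Fst, Tgfb3 and Smad7 were not analysed.

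Inhba, Fst and Tgfbr1 fell in cKO tumours, Tgfbr2 and Acvr2a were lower in only one of the fits, and none of the TGF-beta ligand genes passed the test. Of the 15 member probe sets, 8 were lower in cKO tumours at a limma adjusted p under 0.05 without the pair term, none was higher, and 7 did not pass. Among all 45037 probe sets tested, 47.9% passed, 23.4% as lower and 24.4% as higher. The members' share of 53.3% is close to that background. With both fits 6 of 15 passed, all lower, against 27% of all probe sets, 13.1% as lower and 13.9% as higher. No member had an unadjusted p under 0.05 in the higher direction either. The members' median difference was -0.26, and that of all probe sets 0.0004. The groups did not overlap for 5 of the 15, all lower in cKO, while 24.2% of all probe sets had no overlap, 10.9% as lower and 13.3% as higher. Those 5 belong to Inhba, Fst and Tgfbr1, and they are also the members that passed both fits with a difference beyond the range of the nonspecific controls.

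**Figure D1:**
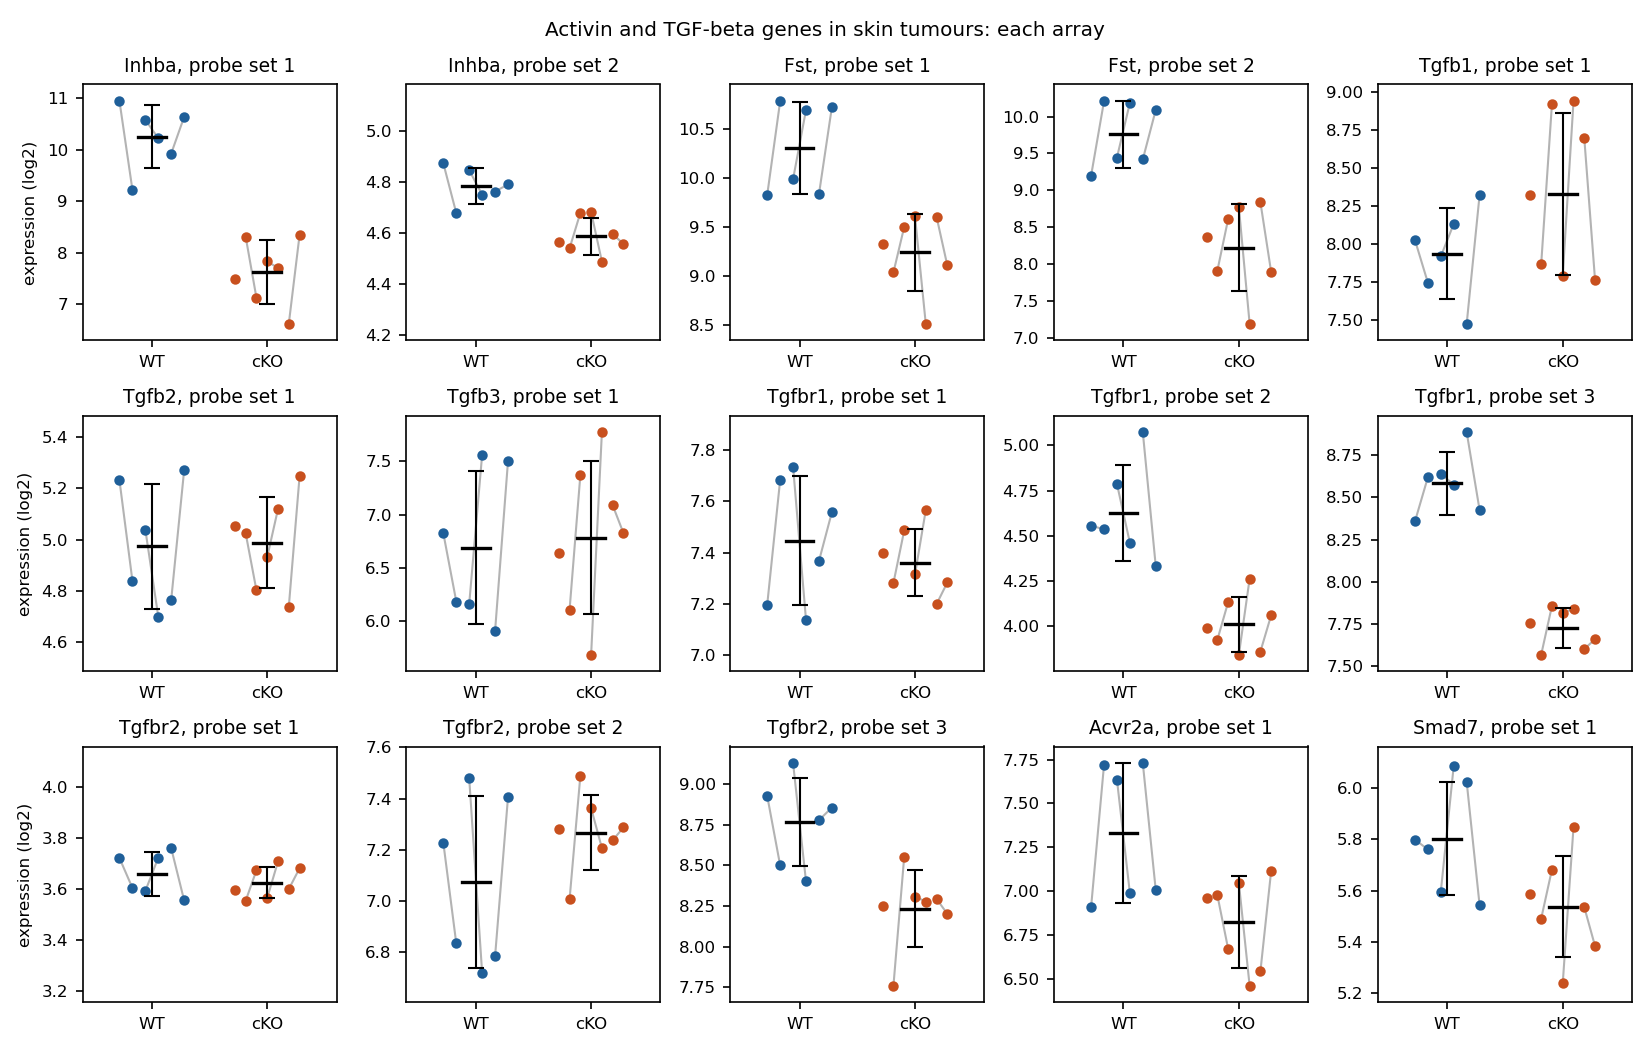
Expression (log2) of each member probe set on every array, with WT in blue (n = 6) and cKO in orange (n = 7), the mean and SD in black, and grey lines joining arrays that follow one another in the deposit. Each panel has its own scale. The groups lie apart for Inhba probe set 1, both Fst probe sets and Tgfbr1 probe sets 2 and 3.

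Inhba encodes the beta A subunit of activin A and had the largest difference among the members. Probe set 1 (1422053_PM_at) read 9.23, 10.40 and 10.94 (lowest, median and highest, log2) on WT arrays and 6.62, 7.71 and 8.35 on cKO arrays. WT replicate 4 was the lowest WT array and WT replicate 2 the highest, while cKO replicate 8 was the lowest of all, and the groups stayed 0.88 apart. The difference of -2.62 ± 0.32 (SE, limma adjusted p = 3.65e-05) amounts to a 6.15-fold lower level, with a 95% interval of -3.31 to -1.93. With the pair term the interval was -3.55 to -1.70 (adjusted p = 0.00426). The exact permutation p over the 1716 splits of the arrays was 0.000583, the smallest they can give. That test takes the arrays as exchangeable, while neighbours in a group mirror each other, so its p is a description. In size the difference exceeded that of 99.9% of all probe sets. The mirroring is plain in this gene: the means of the WT pairs were 10.08, 10.28 and 10.40 although single WT arrays spanned 1.72, and the cKO pairs had means of 7.49, 7.72 and 7.77.

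The second Inhba probe set (1458291_PM_at) read far less change. Its values were 4.68, 4.78 and 4.87 on WT arrays and 4.49, 4.56 and 4.68 on cKO arrays, so the ranges met. It differed by -0.20 (adjusted p = 0.00163, and 0.0346 with the pair term), which is within the range of the nonspecific controls. The mean of both probe sets differed by -1.41 (limma adjusted p = 2.92e-05).

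Fst, the gene of follistatin, fell as well. Probe set 1 (1421365_PM_at) read 9.83, 10.35 and 10.79 on WT arrays and 8.52, 9.33 and 9.61 on cKO arrays, a difference of -1.07 ± 0.22 (SE, limma adjusted p = 0.00177, and 0.0272 with the pair term) or 2.10-fold. Probe set 2 (1434458_PM_at) read 9.20, 9.77 and 10.21 on WT arrays and 7.20, 8.37 and 8.84 on cKO arrays, a difference of -1.53 ± 0.28 (SE, adjusted p = 0.000644, and 0.0161 with the pair term) or 2.89-fold. The groups did not overlap on either, and cKO replicate 6 was the lowest array on both. On both probe sets WT replicates 4, 7 and 9 were the highest arrays and WT replicates 2, 6 and 8 lay below them, so each pair of neighbouring WT arrays held a higher and a lower one. Inhba did not share this order: WT replicate 4, the highest array for Fst, was the lowest WT array for Inhba. The activin subunit and its inhibitor were thus lower in the same group, while their levels did not run together from tumour to tumour. Over the 13 arrays, Pearson's r between Fst and Inhba was 0.63 with the group difference included and -0.46 for deviations from the group means. These are descriptions, since mirrored arrays are not independent.

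The TGF-beta ligand genes did not pass the test in either fit. Tgfb1, the most widely expressed of these ligands, read 7.47, 7.97 and 8.32 on WT arrays and 7.76, 8.32 and 8.94 on cKO arrays. The difference was 0.39 (95% interval -0.10 to 0.89, limma adjusted p = 0.174), an interval that reaches from a small decrease to an increase of 0.89. With the pair term the interval was -0.28 to 1.06. Among cKO arrays, replicates 3, 6 and 8 read 8.92, 8.94 and 8.69, above every WT array. Replicates 2, 5 and 9 read 7.87, 7.79 and 7.76, and replicate 1, which is in no pair, read 8.32. Each cKO pair thus held a higher and a lower array, mirrored around the group mean, so these are not sets of independent tumours. The same 3 cKO replicates had the lowest means of the keratinocyte marker list among cKO arrays, 10.23, 10.42 and 10.23, against 10.71 to 11.12 on the others. Among WT arrays, replicates 9 and 7 were highest for Tgfb1 with list means of 10.79 and 10.37, near both ends of the WT range. The part of cell makeup in the Tgfb1 values was not tested.

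Tgfb3, which encodes a ligand known from wound repair and palate closure, varied most within groups. Its values were 5.91, 6.50 and 7.56 on WT arrays and 5.69, 6.83 and 7.77 on cKO arrays. The SD was 0.72 in each group and the difference was 0.09 (95% interval -0.71 to 0.90, limma adjusted p = 0.854). With the pair term the interval was -0.99 to 1.17. The replicates highest for Tgfb1 in cKO tumours were also the highest for Tgfb3, at 7.37, 7.77 and 7.09. WT replicates 7 and 9, the highest WT arrays for Tgfb1, were the highest for Tgfb3 too, at 7.56 and 7.50. All of these arrays have a mirrored neighbour, so the shared order describes fewer independent tumours than arrays. Tgfb2 read 4.70, 4.94 and 5.27 on WT arrays and 4.74, 5.02 and 5.25 on cKO arrays. It differed by 0.01 (95% interval -0.22 to 0.25, adjusted p = 0.927), in ranges that nearly coincide.

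Tgfbr1, the type I receptor gene of TGF-beta, was read by 3 probe sets that did not agree. Probe set 3 (1420895_PM_at) read 8.36, 8.60 and 8.89 on WT arrays and 7.57, 7.76 and 7.86 on cKO arrays, a fall of 0.86 on the log2 scale, or 1.81-fold, with an SE of 0.08 (limma adjusted p = 5.56e-06, and 0.00137 with the pair term). The lowest WT array lay well above the highest cKO array, and the SDs within groups, 0.19 and 0.12, were small beside the gap. Probe set 2 (1420894_PM_at) lay between 4.33 and 5.07 in WT tumours and between 3.84 and 4.26 in cKO tumours. All 7 cKO arrays were not above background, so the level was at least 1.26-fold lower (adjusted p = 0.000643, and 0.0165 with the pair term; measured means 4.62 and 4.01). Probe set 1 (1420893_PM_a_at) read 7.14 to 7.73 and 7.20 to 7.57, and its difference of -0.08 (95% interval -0.31 to 0.14, adjusted p = 0.518) turned to 0.04 after quantile normalization of the deposited values. Which transcripts the probe sets read is unstated in the sources used.

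Tgfbr2, the ligand-binding type II receptor gene, was lower on 1 of 3 probe sets, and only without the pair term. Probe set 3 (1426397_PM_at) read 8.40, 8.82 and 9.13 on WT arrays and 7.76, 8.28 and 8.55 on cKO arrays. The ranges overlapped through WT replicates 4 and 7 and cKO replicate 3. The difference was -0.53 ± 0.13 (SE, limma adjusted p = 0.00536), and with the pair term the adjusted p was 0.0501. Probe set 2 (1425444_PM_a_at) read 6.72 to 7.48 and 7.01 to 7.49 and differed by 0.19 (adjusted p = 0.243), in the other direction, and by 0.30 (adjusted p = 0.0759) after quantile normalization. Probe set 1 (1422019_PM_at) was not above background on any of the arrays.

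Acvr2a, a type II receptor gene of activin, had values of 6.91, 7.32 and 7.73 on WT arrays and 6.46, 6.96 and 7.12 on cKO arrays. WT arrays split into replicates 4, 6 and 8 at 7.64 to 7.73 and replicates 2, 7 and 9 at 6.91 to 7.01. The latter lay within the cKO range, and each pair of neighbouring WT arrays held a higher and a lower one. The difference of -0.51 (limma adjusted p = 0.028) did not pass with the pair term (adjusted p = 0.123), nor after quantile normalization (adjusted p = 0.0597), and was lost in 6 of 13 fits that left out 1 array, at adjusted p of up to 0.0636. Leaving out WT replicate 4, 6 or 8, or cKO replicate 3, 6 or 8, ended the call.

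Smad7, the inhibitory Smad gene that TGF-beta signalling induces, read 5.54, 5.78 and 6.09 on WT arrays and 5.24, 5.54 and 5.85 on cKO arrays. The difference of -0.26 (95% interval -0.50 to -0.03, and -0.58 to 0.06 with the pair term) missed the threshold (limma adjusted p = 0.0622, and 0.19 with the pair term). It passed without WT replicate 6, without WT replicate 9 or without cKO replicate 6, at adjusted p of 0.0455, 0.0329 and 0.0266. The size lies within the range of the nonspecific controls.

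**Figure D2:**
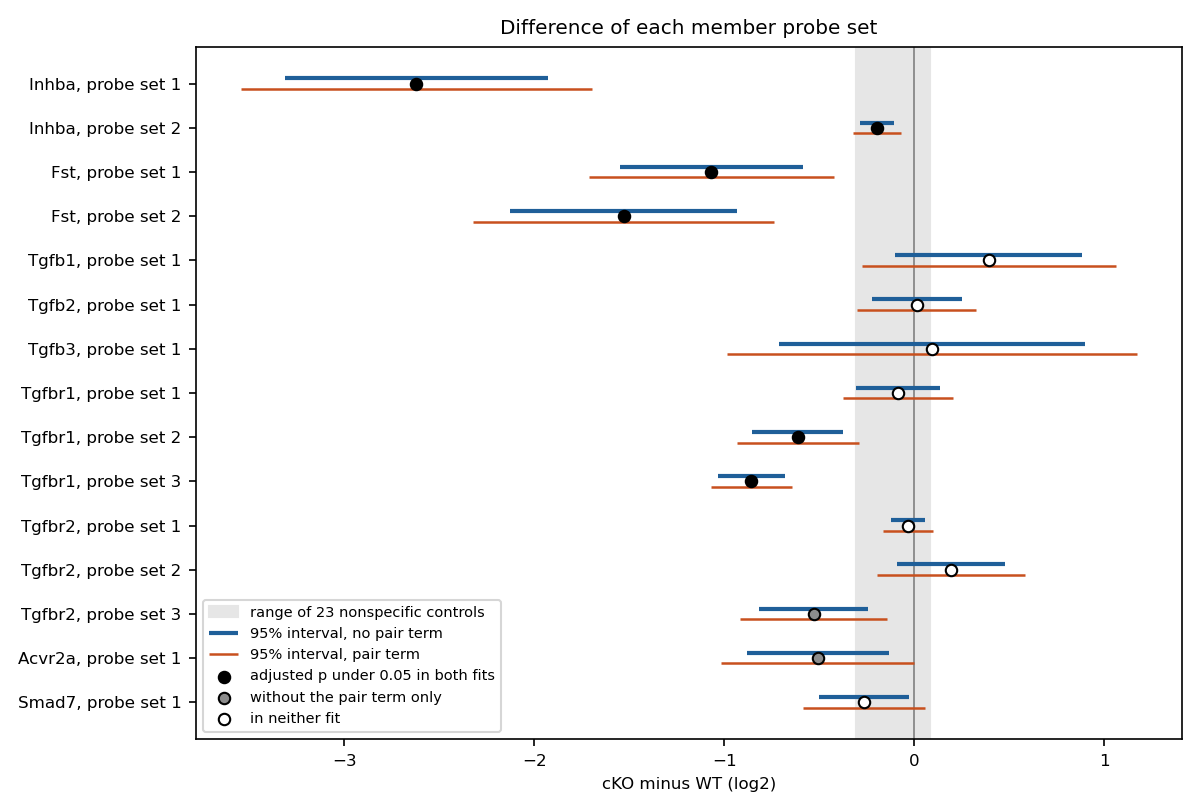
Difference between cKO and WT means (log2) of each member probe set with 95% intervals from the fits without (blue) and with (orange) the pair term, and the range of the 23 nonspecific controls in grey. Filled points passed both fits, grey points passed without the pair term only. Inhba probe set 1 stands farthest from 0, at -2.62, and no member lies above 0 with an interval that leaves 0 out.

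The other genes of the pathway went both ways. In 6 lists, 65 of 76 genes were measured, each through the brightest of its probe sets. Without the pair term 14 were higher and 16 lower at a limma adjusted p under 0.05, while 46.5% of all 17097 genes passed, 26.1% as higher and 20.4% as lower. With both fits 8 were higher and 12 lower, against 26.2% of all genes, 15.2% as higher and 11% as lower. The median difference over all genes was 0.02.

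Signal transducers had the lowest median of the 6 lists. Of 10 Smads and nuclear partners, 4 were lower and 1 higher in both fits, with a median of -0.27. Smad4, the common partner of the receptor Smads, read 9.60 ± 0.11 (SD, n = 6) in WT and 9.27 ± 0.08 (n = 7) in cKO tumours, a fall of 0.33 on the log2 scale (limma adjusted p = 0.000321), and its other probe sets differed by -0.31 (adjusted p = 0.00587, and 0.0542 with the pair term) and by 0.14 (adjusted p = 0.0339, and 0.103 with the pair term). Smad2, a receptor-activated Smad of this branch, fell by 0.45 and Trim33, a ubiquitin ligase that binds Smads, fell by 0.53. A second Smad2 probe set differed by -0.35 and passed neither fit (limma adjusted p = 0.0569, and 0.185 with the pair term). A second Trim33 probe set differed by -0.68 (adjusted p = 0.000883, and 0.0201 with the pair term). Smad3, chosen after its values were seen, fell by 0.81, from 9.78 ± 0.38 to 8.97 ± 0.31 (adjusted p = 0.00246), and its other probe sets were lower by -1.06 and -0.76. Foxh1, a DNA-binding partner of Smads, was higher by 0.44 on its brightest probe set and lower by -0.23 and -0.05 on others, so it has no settled direction.

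Of 8 measured genes that hold TGF-beta latent or release it, 3 were lower in both fits and none passed as higher, with a median of -0.15. Ltbp2, Nrros and Ltbp4 differed by 0.21, 0.10 and 0.06 without passing. Ltbp1, which tethers the latent complex to the matrix, was lower on its brightest probe set. It read 7.91 ± 0.68 in WT and 6.57 ± 0.58 in cKO tumours (SD, n = 6 and 7, limma adjusted p = 0.00451). A dim probe set of it passed both fits as higher, by 0.14 (adjusted p = 0.000961, and 0.0328 with the pair term). That size is within the range of the hybridisation controls. Itgb6, whose product pairs with the alpha V subunit in an integrin that activates TGF-beta on epithelium, fell from 9.04 ± 0.39 to 7.94 ± 0.58 (adjusted p = 0.00387), and its other probe set differed by -0.95 (adjusted p = 0.0134, and 0.081 with the pair term). Itgav, the gene of that alpha V subunit, was lower by -0.51 on its brightest probe set, with differences from -0.26 to 0.44 on 4 others, so its direction is not settled.

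Receptors and co-receptors split by gene. Of 8 measured, 2 were higher and 2 lower in both fits, with a median of 0.06. Eng and Acvrl1, a co-receptor gene and a type I receptor gene best known from endothelium, rose by 1.12 and 0.77 (limma adjusted p = 0.000258 and 0.000136). Eng is also one of 12 endothelial markers, 7 of which were higher in both fits. Vasn, whose product binds TGF-beta, fell by 0.94 and Acvr2b, another type II receptor gene of activin, fell by 0.26, a size within the range of the nonspecific controls. Second probe sets of Eng, Acvrl1 and Vasn differed by 0.12, 0.05 and -0.14 and did not pass. Other Acvr2b probe sets differed by -0.34 (limma adjusted p = 0.00542, and 0.0542 with the pair term) and by -0.0002 (adjusted p = 0.998). None of the 7 other ligand genes passed both fits, and their differences lay between -0.21 and 0.13.

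Antagonists and target genes showed no common direction. Of 14 antagonists and negative regulators, 1 was higher and 1 lower in both fits, with a median of -0.01. Skil, a Smad corepressor gene that TGF-beta induces, fell by 0.45 (limma adjusted p = 0.0023), and the proteoglycan gene Dcn rose by 1.10 (adjusted p = 4.99e-06). Dcn and the collagen gene Col1a1 are also among 12 fibroblast markers, 8 of which were higher in both fits. Of 18 textbook target genes, 4 were higher and 2 lower in both fits, with a median of 0.03. Snai2, a transcription factor gene of epithelial-mesenchymal transition, fell by 1.42 and the matrix gene Tnc, chosen after its values were seen, fell by 0.67. Col1a1 rose by 2.93 and Acta2, which encodes smooth muscle actin, rose by 1.44, while Junb, also chosen after its values were seen, and Lox rose by 0.44 and 0.21, sizes within the range of the hybridisation controls.

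**Figure D3:**
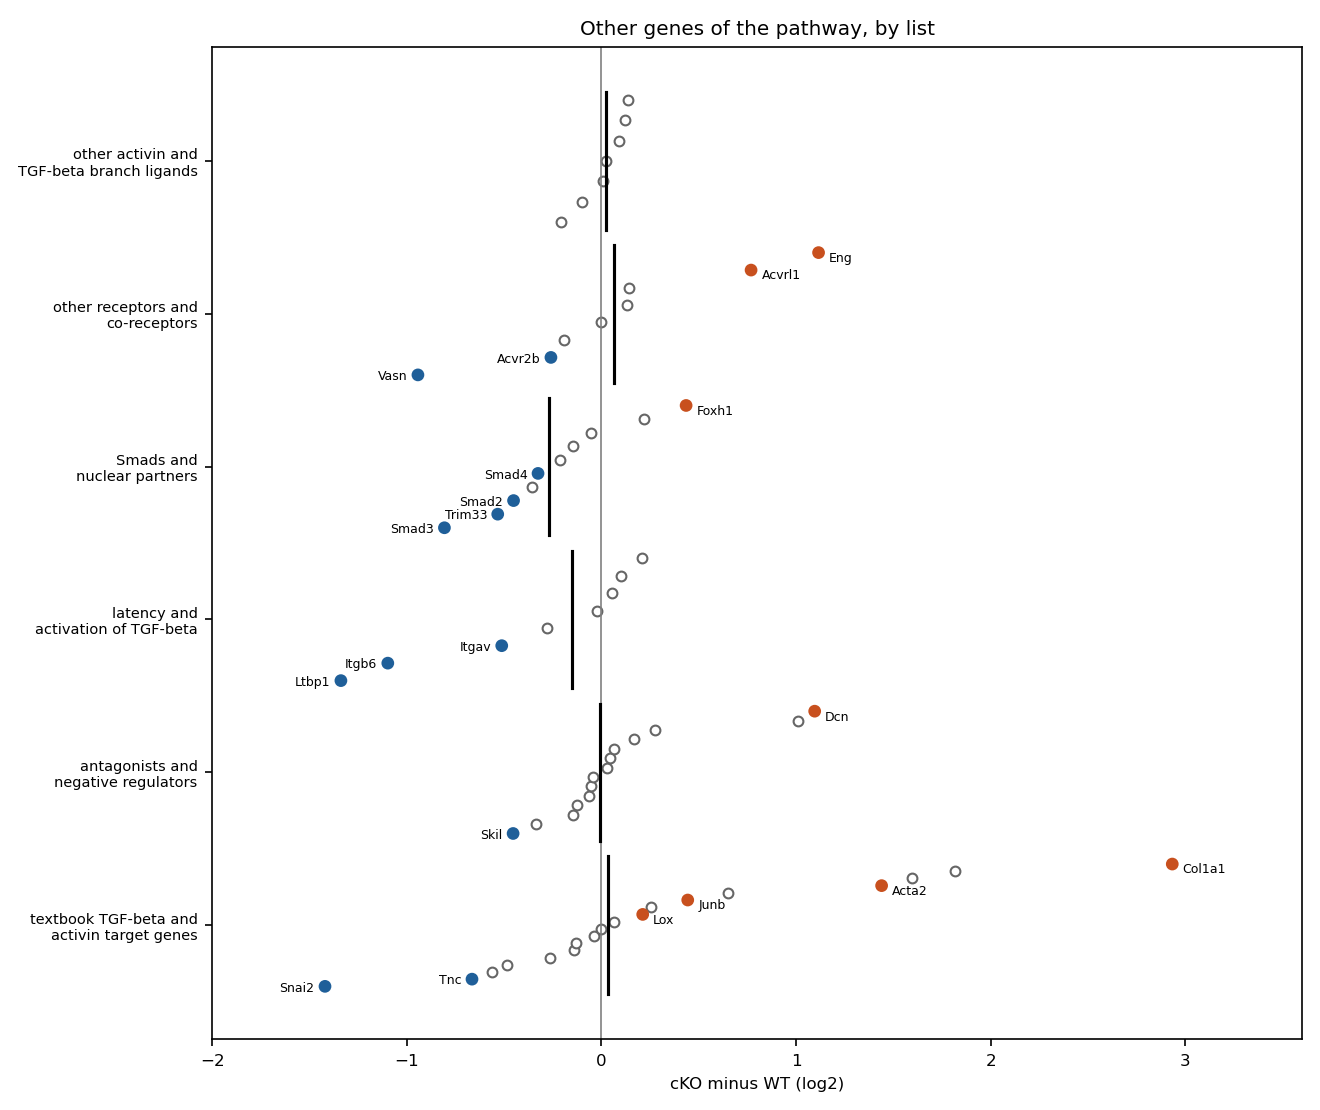
Difference between cKO and WT means (log2) for the measured genes of 6 pathway lists, one point per gene, with the list's median as a black bar. Filled and named points passed both fits (orange higher, blue lower in cKO). No gene of the latency list passed as higher by its brightest probe set, and the target list spans -1.42 for Snai2 to 2.93 for Col1a1.

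Several marker lists of other cell types differed between the groups. Counts are of markers that passed both fits, which 26.2% of all 17097 genes did, 15.2% as higher and 11% as lower. The fibroblast list had means of 5.38 to 5.93 in WT and 6.32 to 6.78 in cKO tumours, and none of its markers passed as lower. Endothelial markers had list means of 4.49 to 5.52 and 5.60 to 6.00, and none passed as lower. Of 12 myeloid markers 4 were higher, with list means of 4.56 to 4.62 and 4.87 to 5.43. Of these 4, Cd53 differed by 2.95, while Csf1r, Adgre1 and Itgam differed by 0.26, 0.35 and 0.23, within the range of the hybridisation controls. Of 6 pericyte and smooth muscle markers 3 were higher, among them Acta2, and 1 was lower. List means were 5.28 to 5.86 and 5.61 to 5.84. The lower marker was Rgs5, which differed by -1.43 (limma adjusted p = 4.73e-05, and 0.00473 with the pair term). A second Acta2 probe set differed by 0.18 and did not pass. Defining markers remained dim in places: Ptprc, Pdgfra and Col1a2 were not above background in either group. Of 9 lymphocyte markers 2 were higher and 1 lower. Of 8 skeletal muscle markers 3 were higher, with list means of 4.61 to 4.67 and 4.74 to 4.80. The median difference of the skeletal muscle list was 0.10, within the range of the hybridisation controls. Of 5 adipocyte markers 2 were higher and 2 lower, with Adipoq not above background in either group.

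The keratinocyte markers went both ways. Of 10 measured, 1 was higher and 2 lower in both fits, with a median difference of -0.04. Over all genes 15.2% passed both fits as higher and 11% as lower, and counts this small are not set apart from those shares. List means were 10.37 to 10.88 on WT and 10.23 to 11.12 on cKO arrays. Krt6a, a keratin gene of wounded and hyperproliferative epidermis, fell by 0.37 (limma adjusted p = 0.000285) and the desmosome gene Dsp fell by 0.20 (adjusted p = 0.00306), both without overlap, while the basal keratin gene Krt5 rose by 0.13 (adjusted p = 0.000988). Krt14, its partner, differed by -0.12 (adjusted p = 0.0431, and 0.179 with the pair term) and Krt16 by -0.43 (adjusted p = 0.0861). The sizes for Dsp, Krt5 and Krt14 lie within the ranges of the controls. The part of the keratinocyte, fibroblast, endothelial, myeloid and skeletal muscle differences in the member results was not tested.

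**Figure D4:**
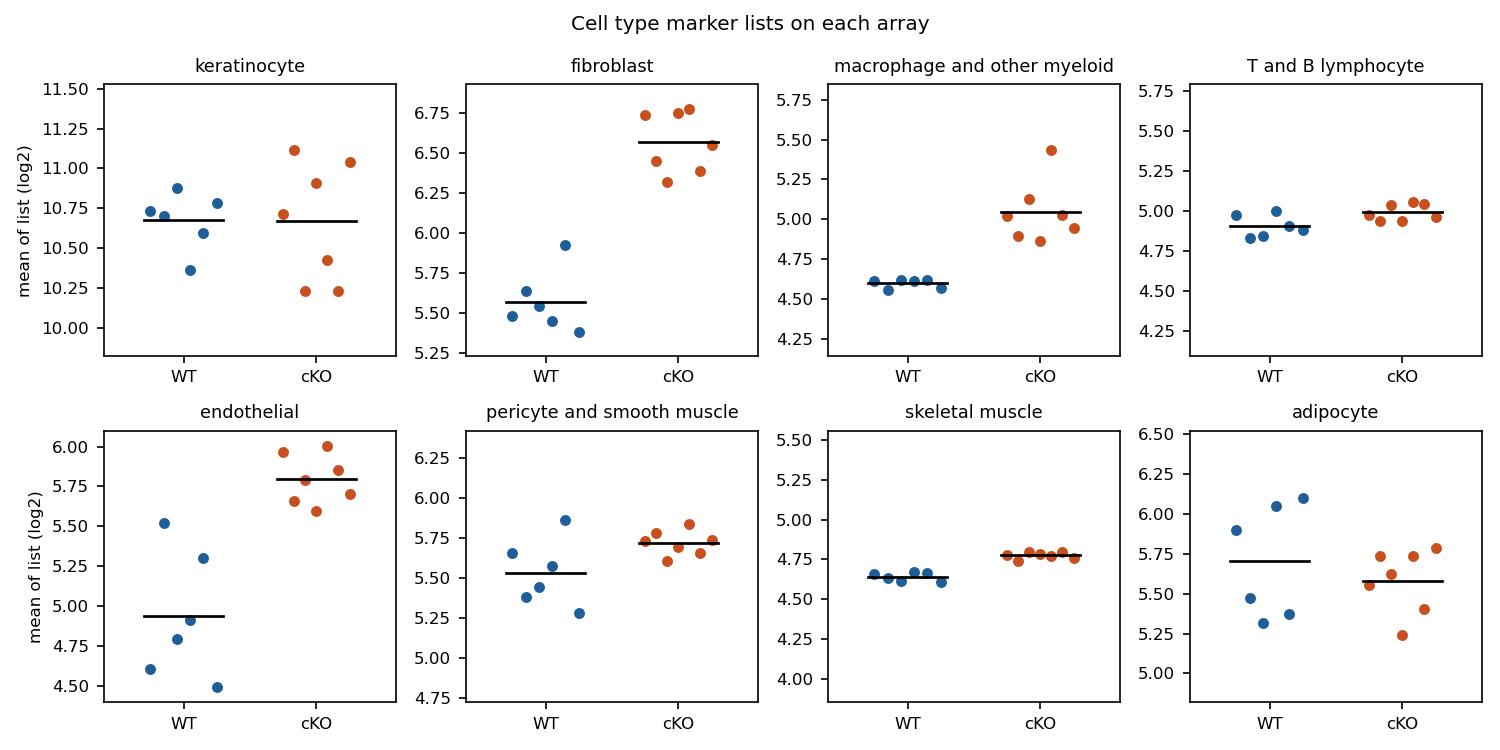
Mean log2 level of 8 marker lists on each array, WT in blue (n = 6) and cKO in orange (n = 7), with the group mean as a black bar. Each panel spans the same number of log2 units. The fibroblast, endothelial, myeloid and skeletal muscle lists do not overlap between the groups, and the keratinocyte list does. The median difference of the skeletal muscle list, 0.10, is within the range of the hybridisation controls.

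The genes whose pattern was most like that of Inhba were looked for among 15414 genes. The measure was Pearson's r over the 13 arrays with Inhba probe set 1. Genes named as predicted or after clones were left out beforehand, so none of them could be ranked. The highest values belonged to Epgn (0.98), a ligand gene of the EGF receptor, and to Rad23b, Sntg1, Tonsl and Flrt2 (each 0.97). All 5 were lower in cKO tumours in both fits. Epgn fell from 10.64 ± 0.36 to 9.46 ± 0.40 (SD, n = 6 and 7; limma adjusted p = 0.000367) and Flrt2 from 9.73 ± 0.33 to 8.48 ± 0.23, with its other probe sets lower by -1.74 and -1.80. Rad23b fell by 0.59, with other probe sets at -1.54 (adjusted p = 9.01e-09) and -0.55 (adjusted p = 0.0104, and 0.0635 with the pair term). Tonsl fell by 0.31, while Sntg1, not above background in cKO tumours, was at least 1.13-fold lower. Such an r includes the difference between the groups, and it is given with no test. Among the members, r with Inhba was 0.82 for Tgfbr1, 0.69 for Tgfbr2, 0.56 for Acvr2a, 0.41 for Smad7, 0.27 for Tgfb2, -0.08 for Tgfb3 and -0.51 for Tgfb1.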

How the data were processed

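Total RNA of 6 WT and 7 cKO tumours was measured on 1 array each. The authors deposited log2 values per probe set, made with RMA per the submitters' processing notes; its version and any later adjustment were unstated in the sources used. From 25 ng of RNA, cDNA was amplified with 17 cycles and 8 µg was labelled, per the labels' protocols. Of 45141 probe sets, 104 are array controls, 28898 have 1 symbol, 551 several and 15692 none, controls included.

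The other 45037 probe sets entered lmFit and eBayes of limma 3.58.1 (R 4.3.3). Tests were two-sided, p-values were adjusted by Benjamini-Hochberg over all of these, and the threshold was 0.05. No filter was set on dim probe sets. A second fit had a term for each pair of neighbouring arrays. Genes of lists were read by their probe set of highest mean. The script was tested on simulated data. Genes named by rule were all members and the 5 most like Inhba by each measure. In each pathway list they were up to 4 genes of smallest p among those called in both fits. Smad3, Tnc, Junb, Ltbp2, Nrros, Ltbp4 and the single cell type markers were chosen outside this rule. Members, lists and the pair term were chosen with earlier results of these data known, so patterns shown by those are not independent support. The number of arrays limits the precision. Alternatives were other scalings, filters, gene-level values, priors, weights, blocks, each array left out and a threshold of 0.01. Figures used matplotlib 3.10.9.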

Additional observations from a re-analysis of the deposited data

How the results depend on the processing

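The Inhba difference passed its threshold in all 24 alternatives, between -2.83 and -1.41 with limma adjusted p of at most 0.00854, and between -2.83 and -2.45 with each array left out. Of 15 member probe sets, 8 passed as reported and 7 to 9 with each array left out; at gene level 5 of 9 genes passed by their brightest probe set and 4 by the mean of their probe sets, where fewer features were tested. For the 4 replicate numbers that both groups share, deviations of the WT and cKO array correlated at -0.28 to 0.05. Neighbours within a group mirror each other in these deviations, so the values cannot show whether the numbers pair the arrays. With the replicate block 5 members passed, all lower, and 17 pathway genes, 7 higher and 10 lower, against 30, 14 and 16 without it. The block gives each replicate number a term, so only arrays of the 4 shared numbers inform the difference. It also leaves fewer residual degrees of freedom, and the part of each in the lower counts was not tested. With the pair term, which has fewer residual degrees of freedom, 8 pathway genes were higher. Fst probe set 1 (adjusted p = 0.0545) and Tgfbr1 probe set 2 (0.0526) missed the threshold with the replicate block and passed in the other alternatives. Median differences over all probe sets were 0.007 after quantile normalization and -0.01 after median centring. No called member changed direction. The mean of probe sets was not run for the pathway lists. The filter on the lowest 25% left out 1 member probe set.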

Other observations

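Within groups, where the difference between genotypes is taken out, the genes most like Inhba were others. Pearson's r of the deviations from the group means, over 13 arrays and with no test, was highest for the proteasome subunit gene Psmb4 (0.95), the glycolysis gene Pgk1 (0.94), the mitosis gene Cdc20 (0.94), the amino acid transporter gene Slc7a5 (0.93) and the copper transporter gene Atp7b (0.93). Of these 5, Atp7b rose by 0.18 in cKO tumours (limma adjusted p = 0.00245), a size within the range of the hybridisation controls, and the other 4 did not pass both fits. Pgk1 read 11.40 ± 0.16 in WT and 11.42 ± 0.10 in cKO tumours (SD, n = 6 and 7). Among the members, Tgfb2 had the highest within-group r with Inhba, 0.75, and Fst the lowest, -0.46. Epgn, which led over all arrays, had a within-group r of 0.92. Mirrored arrays share their deviations in pairs, so these values describe fewer independent tumours than arrays.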
